A study of Homo sapiens with 6 samples.

Results

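Integrin subunits are the subject here: the 10 integrin genes ITGA2, ITGA3, ITGA5, ITGA6, ITGAV, ITGB1, ITGB4, ITGB5, ITGB6 and ITGB8, chosen by name from the 16306 genes of the expression table. All 10 passed the filter on low counts, which kept 12620 genes. The study sequenced RNA of PC9 cells, a human lung adenocarcinoma line that carries an activating EGFR mutation, after knockdown of RBM10, an RNA-binding protein that regulates splicing. The control group was PC9 with a negative control shRNA (sh-NC, 3 libraries, numbered 1 to 3), and the other group was PC9 with an shRNA against RBM10 (shRBM10, 3 libraries, called A, B and C), with no further treatment or time point in the labels. Both groups come from 1 cell line, the labels do not name the RBM10 shRNA used, and the labels number the libraries as biosamples. The study's methods state independent repeats for its experiments in general, but neither source ties these libraries to separate cultures, so p-values measure the spread between these libraries, which may be in part technical.

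An integrin is a receptor made of 1 α and 1 β subunit, and each pair binds its own set of ligands outside the cell and couples them to the cytoskeleton inside it. ITGB1 is the common β subunit and pairs with ITGA2 (a collagen receptor), ITGA3 and ITGA6 (laminin receptors), ITGA5 (the fibronectin receptor) and ITGAV. ITGA6 also pairs with ITGB4, the subunit of hemidesmosomes, which tie epithelial cells to the basement membrane through keratins. ITGAV pairs in addition with ITGB5, a vitronectin-binding subunit, and with ITGB6 and ITGB8, which bind latent TGF-β and release or present it.

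The libraries hold 16606390 to 18864243 estimated counts each. RBM10 had 1418, 1172 and 1455 normalized counts in sh-NC 1 to 3 and 532, 510 and 666 in shRBM10 A to C, so the groups did not overlap (log2 fold change -1.24, SE 0.23, adjusted p = 0.10 by edgeR's quasi-likelihood test). Without sh-NC 2 it was called (-1.42, adjusted p = 0.0487). Adjusted p-values are by the Benjamini-Hochberg method over all genes tested. A normalized count is a count scaled by edgeR's TMM factors to a common library size. Library sh-NC 2 stood apart from the other controls: its counts differed from those of sh-NC 1 and 3 by 158 and 164 in chi-square per degree of freedom, while sh-NC 1 and 3 differed by 2.93. By the same measure shRBM10 C was nearer to sh-NC 1 and 3 (29.8 and 30.2) than to A and B (97.9 and 53.9). Libraries A and B differed by 29.7. Long transcripts were low in sh-NC 2, with a rank correlation of -0.65 between transcript length and its log2 difference from sh-NC 1 and 3 across genes. The same correlation was 0.27, 0.11 and -0.14 in shRBM10 A to C. The rank correlation between GC content and a gene's log2 deviation from the mean of sh-NC 1 to 3 was -0.71 and -0.67 in A and B and -0.14 in C. In sh-NC 1 to 3 it was -0.20, 0.21 and -0.21, values tied to each other because each control is part of that mean. All 6 epithelial markers were present (13.5 TPM or more in sh-NC; TPM is the authors' abundance per transcript length), and the markers of retina, leukocytes, fibroblasts and endothelium that the table holds reached at most 3.10 TPM there. Fewer cells of a kind and less RNA per cell cannot be told apart in such bulk samples.

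The 10 subunits differ in the base composition of their transcripts, which is set beside their values below. The stretches shown here are the 60 coding bases of the 5 β subunits that start at the first codon of their conserved metal-binding motif, the core of the ligand-binding site, and are given because the same protein feature is written in different bases. Each lies within 1 coding exon. Capitals mark a G or C at the third position of a codon, where most changes leave the amino acid as it is. The sequences are from GENCODE 29 on GRCh38, read 5′ to 3′ on the coding strand.
ITGB1 (chr10:32928134-32928193, minus strand): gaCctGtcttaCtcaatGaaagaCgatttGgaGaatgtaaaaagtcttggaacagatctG
ITGB8 (chr7:20379122-20379181, plus strand): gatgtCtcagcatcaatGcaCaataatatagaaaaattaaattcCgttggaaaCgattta
ITGB6 (chr2:160195485-160195544, minus strand): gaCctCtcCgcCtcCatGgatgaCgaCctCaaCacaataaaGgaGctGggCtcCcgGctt
ITGB5 (chr3:124848428-124848487, minus strand): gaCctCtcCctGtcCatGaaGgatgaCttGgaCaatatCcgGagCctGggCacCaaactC
ITGB4 (chr17:75727795-75727854, plus strand): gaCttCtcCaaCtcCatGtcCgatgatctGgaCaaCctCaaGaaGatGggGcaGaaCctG
Of the 20 codons shown, 8 end in G or C in ITGB1, 5 in ITGB8, 16 in ITGB6, 17 in ITGB5 and 18 in ITGB4. Over the whole coding sequence, G or C held 38.6% of such positions in ITGB1, 39.7% in ITGB8, 47.8% in ITGB6, 69.8% in ITGB5 and 82.3% in ITGB4, so the short stretch of ITGB6 is richer in them than its coding sequence. Over whole transcripts, 6 subunits had 37.8% to 42.9% GC (ITGB8, ITGAV, ITGB1, ITGB6, ITGA2 and ITGA6 in rising order), and 4 had 54.3% to 63.7% (ITGB5, ITGA5, ITGA3 and ITGB4). The median of the genes tested was 49.3%.

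In TPM, a level per transcript length, ITGA3 and ITGB5 were the most abundant subunits in sh-NC. ITGA3 had 248, 103 and 246 TPM in sh-NC 1 to 3 and ITGB5 had 170, 73.6 and 182. These ranges overlapped, though ITGA3 was above ITGB5 in each control. ITGB1, ITGB4 and ITGA5 followed with means of 50.1, 39.0 and 27.8 TPM (SD 28.7, 18.8 and 10.6, n = 3). The step from ITGB5 down to ITGB1 and that from ITGA5 down to ITGA6 were the places in the order where neighbouring ranges did not overlap. Below the second step lay ITGA6 (8.95 ± 6.35 TPM, SD, n = 3), ITGA2 (6.70 ± 5.35), ITGB6 (4.52 ± 3.03), ITGAV (2.31 ± 1.54) and ITGB8 (0.427 ± 0.261), each overlapping the next. Within each control, ITGA6 was above ITGA2, ITGB6 above ITGAV and ITGAV above ITGB8. ITGA2 was above ITGB6 in sh-NC 1 and 3 and below it in sh-NC 2 (0.56 and 1.08 TPM). Library sh-NC 2 was the lowest of the 3 controls in TPM for all 10 subunits, whose transcripts are 3784 to 8751 bases long against a median of 3395 in the genes tested. In shRBM10 A, the library of that group whose column matches a sample title, ITGB1 stood at 165 TPM, beside ITGA3 at 174, and ITGB6 at 25.8, above ITGA6 at 18.9. The authors' means over the 3 shRBM10 libraries were 117 TPM for ITGB1, 185 for ITGA3, 103 for ITGB5 and 18.7 for ITGB6.

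**Figure D1:**
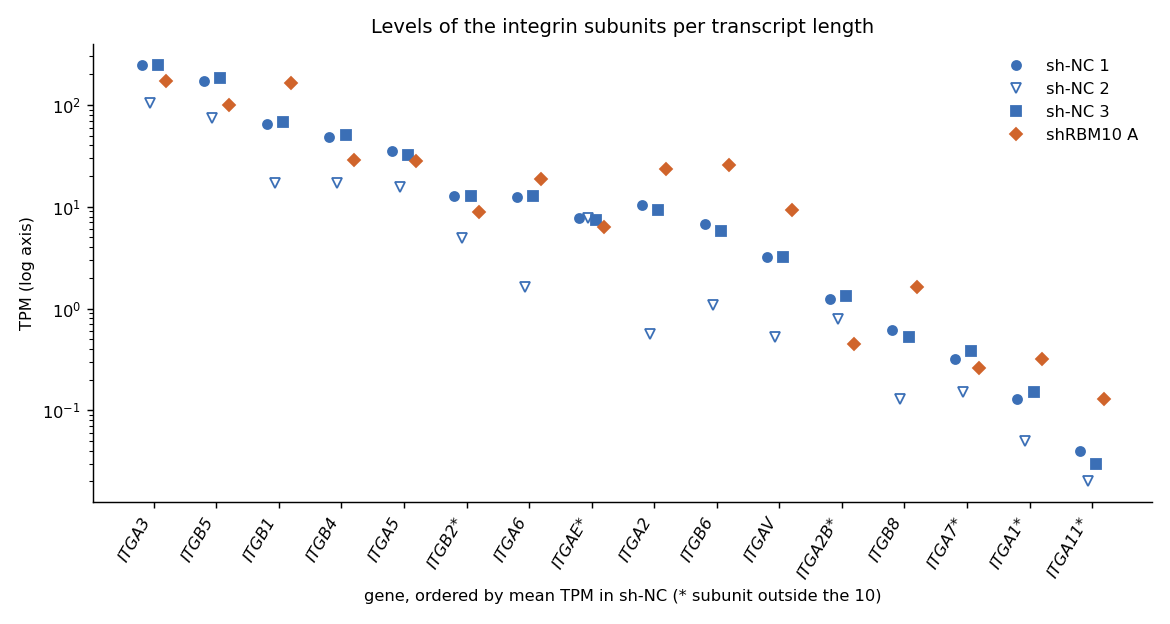
TPM on a log axis for the 10 integrin subunits and the 6 others kept by the filter (asterisk), ordered by their mean in sh-NC; blue symbols are sh-NC 1 to 3 and the orange diamond is shRBM10 A. The open triangle of sh-NC 2 lies below the other controls for all 10 subunits, and for ITGB6 the diamond (25.8 TPM) lies above all 3 controls (1.08 to 6.77 TPM).

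In the comparison of shRBM10 with sh-NC, 0 of the 10 subunits passed the call rule of an adjusted p under 0.05 together with a log2 fold change beyond 1 in size (edgeR's quasi-likelihood test), beside 0.0158% of all genes tested. With an unadjusted p under 0.05 and the same fold, 4 of 10 were higher in shRBM10 (ITGB6, ITGB8, ITGAV and ITGB1), where 10.1% of all genes were, and 0 of 10 were lower, where 1.53% of all genes were. The 3 libraries of each group did not overlap for 3 subunits that were higher in shRBM10 (ITGB6, ITGB8 and ITGB1; 13.8% of all genes) and for 1 that was lower (ITGB5; 16.2% of all genes). These higher subunits are all of low GC content. Of the 2572 genes tested in the GC range of the low-GC subunits, 25.7% were higher by the unadjusted rule and 23.6% were higher without overlap. Of the 3503 genes in the range of the GC-rich subunits, ITGB5 among them, 28.6% were lower without overlap. The median log2 fold change of the 10 was 0.79, against 0.027 over all genes tested. By DESeq2 with the same limits, ITGB6 and ITGB8 were higher, with 3.33% of all genes with an adjusted p. Without sh-NC 2 or without library A, 2 of 10 passed the unadjusted rule, ITGB6 and ITGB8 both times, where 4.81% and 3.33% of all genes were higher by that rule. Without library C, with 3 libraries against 2, the groups did not overlap for 5 of 10 that were higher (33.0% of all genes) and 4 of 10 that were lower (30.5% of all genes), ITGA6 being the exception.

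**Figure D2:**
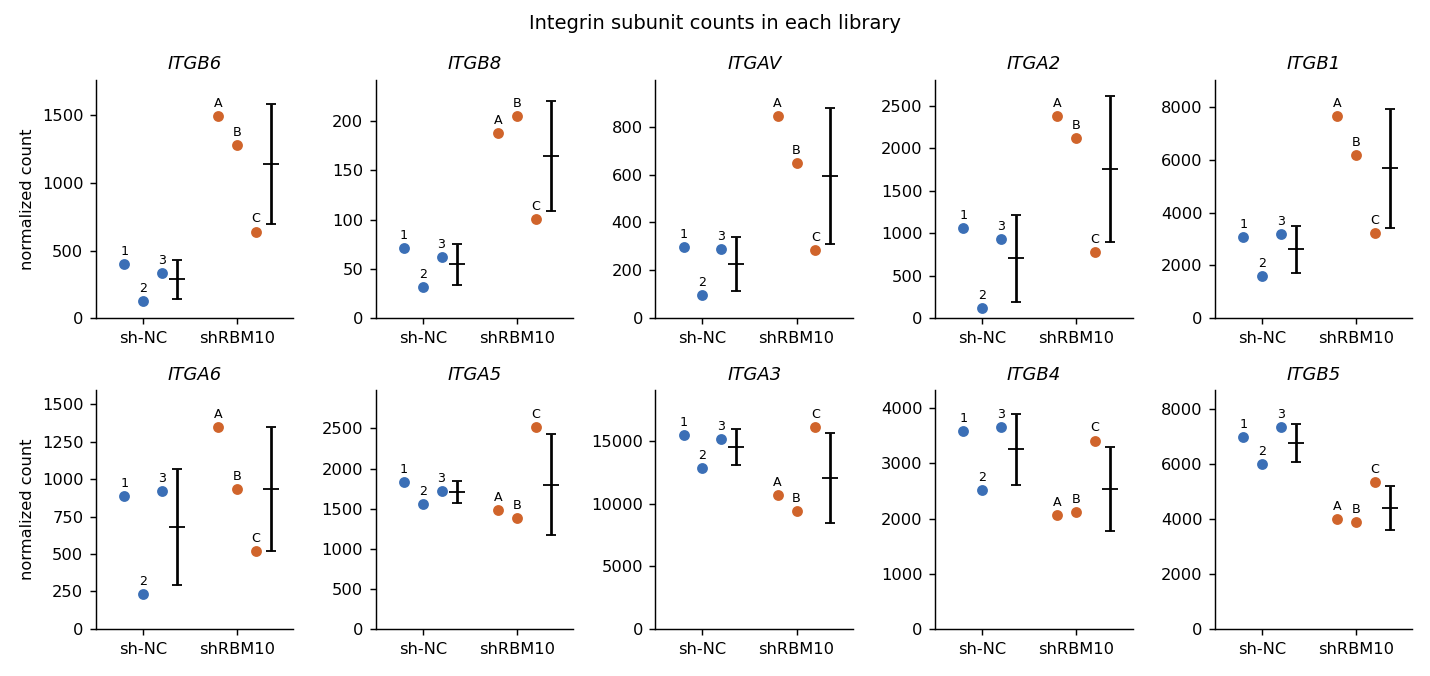
Normalized counts of each integrin subunit in every library (linear axes from 0), with sh-NC 1 to 3 in blue, shRBM10 A to C in orange and the mean ± SD of each group in black (n = 3). ITGB6 and ITGB8 are higher in all 3 shRBM10 libraries than in every control, and C lies nearest to the controls for both.

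ITGB6, the epithelial β subunit that pairs with ITGAV alone, differed most among the 10. It had 402, 127 and 333 normalized counts in sh-NC 1 to 3 and 1495, 1284 and 641 in A, B and C. All 3 shRBM10 libraries lay above all controls, with C the lowest of them and sh-NC 2 the lowest of all. The fold change was 3.95 (log2 1.98, SE 0.45), with unadjusted p = 0.00137 and adjusted p = 0.130 by edgeR's quasi-likelihood test, and it ranked 130 by p among the genes tested. DESeq2 gave a log2 fold change of 1.94 with adjusted p = 0.00179.

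The region before the ITGB6 start is shown because ITGB6 differed most. It is the 250 bases upstream of the RefSeq start (GRCh38.p14, chr2:160200273-160200522, minus strand), with G and C in capitals.
ITGB6: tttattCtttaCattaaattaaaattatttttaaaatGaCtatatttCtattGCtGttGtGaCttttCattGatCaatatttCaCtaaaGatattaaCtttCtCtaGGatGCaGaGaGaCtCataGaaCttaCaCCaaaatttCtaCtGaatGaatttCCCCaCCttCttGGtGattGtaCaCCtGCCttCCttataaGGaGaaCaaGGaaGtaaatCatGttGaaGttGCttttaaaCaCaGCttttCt
It holds 75 G or C among 250 bases. The whole promoter window, 300 bases with those after the start, had 31.7% GC, and 1.74% of 35116 RefSeq promoter windows of that length had less. It held 0 CpG dinucleotides, where the median window held 14. It had no match to the AP-1 motif TGANTCA or to TATAAA on either strand, which 7.71% and 11.5% of all windows held. In RefSeq, 8 of the 10 subunits had a promoter entry. Their windows other than that of ITGB6 had 40.7% to 78.3% GC, and several genes had windows far apart, such as ITGAV (41.3% and 70.7%) and ITGB1 (40.7% and 78.3%).

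ITGB8, the other TGF-β-binding partner of ITGAV, was the least abundant of the 10. Its normalized counts were 71.0, 31.2 and 61.7 in sh-NC 1 to 3 and 188, 205 and 101 in A to C. Again no shRBM10 library overlapped the controls, and C was the lowest of its group. The log2 fold change was 1.58 (SE 0.40, unadjusted p = 0.00297, adjusted p = 0.144 by edgeR's quasi-likelihood test), and DESeq2 gave 1.54 with adjusted p = 0.0171.

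ITGAV, the α partner of ITGB5, ITGB6 and ITGB8, had 296, 94.9 and 288 normalized counts in sh-NC and 844, 648 and 284 in A to C. Libraries A and B lay above all controls, while C lay within their range. Its log2 fold change was 1.38 (SE 0.49), with unadjusted p = 0.0188 and adjusted p = 0.169 by edgeR's quasi-likelihood test.

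ITGB5, the β partner of ITGAV with the highest TPM in sh-NC, differed in the other direction. It had 6971, 5999 and 7352 normalized counts in sh-NC and 4001, 3894 and 5333 in A to C, so every shRBM10 library lay below every control. The log2 fold change was -0.62 (SE 0.24, unadjusted p = 0.0265, adjusted p = 0.176 by edgeR's quasi-likelihood test), short of the fold limit of the call rule.

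Among the subunits with roles outside the αv pairs, ITGB1 was higher in shRBM10, with 3070, 1595 and 3184 normalized counts in sh-NC and 7657, 6167 and 3235 in A to C. The groups did not overlap, but C exceeded sh-NC 3 by a small margin. In the fit without sh-NC 2, where filter and TMM scaling were computed anew and these counts shifted, the groups overlapped. Its log2 fold change was 1.12 (SE 0.37, unadjusted p = 0.0131, adjusted p = 0.158 by edgeR's quasi-likelihood test). ITGA2, the collagen-binding partner of ITGB1, had 1063, 115 and 934 normalized counts in sh-NC and 2380, 2120 and 777 in A to C. A and B lay above all controls and C below sh-NC 1 and 3, and sh-NC 2 was at 0.115 of the mean of the other controls. The log2 fold change of ITGA2 was 1.32 (SE 0.67, adjusted p = 0.244 by edgeR's quasi-likelihood test), the widest error of the 10.

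ITGA6, the laminin-binding partner of ITGB1 and ITGB4, had 889, 232 and 922 normalized counts in sh-NC and 1349, 931 and 521 in A to C. The groups overlapped, and its log2 fold change of 0.45 (SE 0.50) became -0.046 (SE 0.34) without sh-NC 2. ITGB4, the hemidesmosomal subunit, had 3583, 2515 and 3665 normalized counts in sh-NC and 2069, 2122 and 3416 in A to C. Here A and B lay below all controls and C between them, with a log2 fold change of -0.36 (SE 0.28) that was -0.59 (SE 0.24) without sh-NC 2, where the groups no longer overlapped. ITGA3, the laminin receptor with the highest level, had 15510, 12871 and 15203 normalized counts in sh-NC and 10703, 9392 and 16146 in A to C (log2 fold change -0.27, SE 0.28). ITGA5, the fibronectin receptor subunit, had 1834, 1563 and 1724 in sh-NC and 1487, 1387 and 2520 in A to C, with a log2 fold change of 0.075 (SE 0.27). For both, A and B lay below all controls and C above them, and the log2 fold change of ITGA5 was -0.064 without sh-NC 2 and -0.30 without library C.

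The direction of the 10 subunits went with the GC content of their transcripts, apart from GC-rich ITGA5 at 0.075. The 6 subunits of low GC content had log2 fold changes of 0.45 to 1.98 (median 1.35), and the 2572 genes tested in their GC range had a median of 0.72, with 86.8% of them above 0. The 4 GC-rich subunits had log2 fold changes of -0.62 to 0.075 (median -0.31), and the 3503 genes in their range had a median of -0.29, with 21.5% above 0. Library C was the lowest of the shRBM10 libraries for 6 of 6 low-GC subunits, as it was for 91.2% of the genes in that range, and the highest for 4 of 4 GC-rich ones, as for 85.5% of the genes in theirs. Library sh-NC 2 was the lowest control for all 10 subunits, against 60.7% of the genes in the lower range and 38.2% in the higher. The part of base composition, transcript length and these libraries in the differences was not tested beyond the fits that follow.

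**Figure D3:**
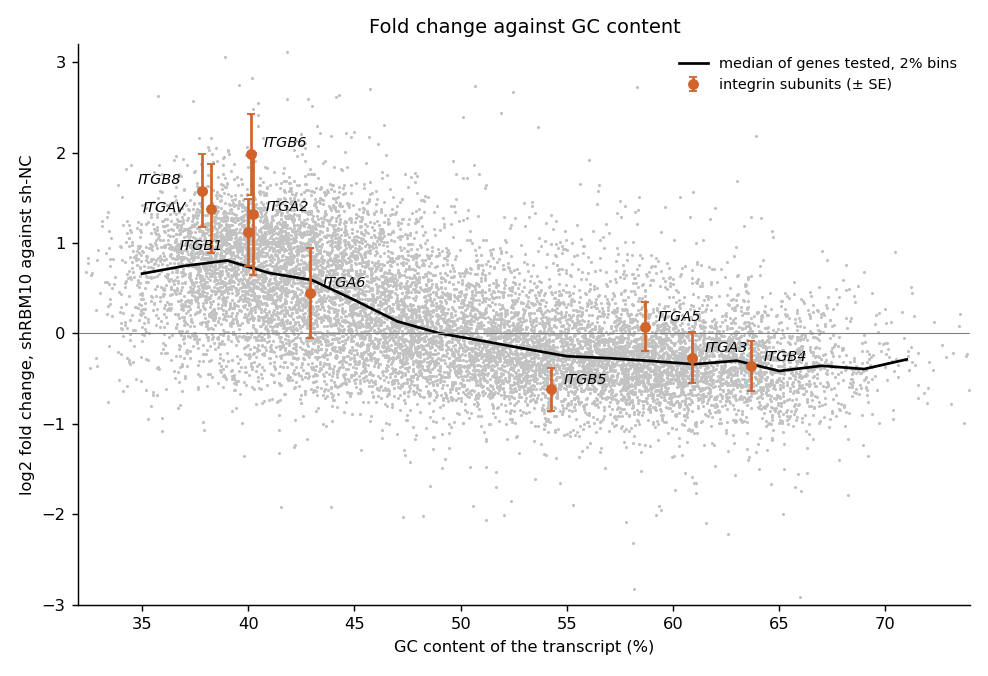
Log2 fold change of shRBM10 against sh-NC plotted against the GC content of the transcript for the genes tested (grey), with their median in bins of 2% (black line) and the 10 integrin subunits ± SE (orange). ITGB6 (1.98) and ITGB8 (1.58) lie above the black line at their GC content, ITGB5 (-0.62) lies below it, and ITGA6, ITGA3 and ITGB4 lie near it.

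When the trend of each library with GC content was removed before the fit, ITGB6 kept a log2 fold change of 1.32 (SE 0.31, adjusted p = 0.137 by edgeR's quasi-likelihood test), ITGB8 one of 0.87 (SE 0.24, adjusted p = 0.169) and ITGB5 one of -0.49 (SE 0.17, adjusted p = 0.224). The values of the other low-GC subunits came down to 0.67 for ITGA2, 0.65 for ITGAV, 0.43 for ITGB1 and -0.11 for ITGA6. ITGA5 stood at 0.28, ITGA3 at -0.013 and ITGB4 at -0.082. The groups did not overlap for ITGB6, ITGB8 and ITGB1 (higher, as for 12.9% of all genes) and ITGB5 (lower, as for 17.6%), as without the correction. With length trends removed as well, an alternative chosen after seeing the data, the log2 fold change was 1.27 for ITGB6 (adjusted p = 0.0541 by edgeR's quasi-likelihood test), 0.75 for ITGB8 (adjusted p = 0.0712) and -0.57 for ITGB5 (adjusted p = 0.0470, under the fold limit). The other values in that fit were 0.65 for ITGA2, 0.54 for ITGAV, 0.44 for ITGB1, 0.22 for ITGA5, -0.085 for ITGA3, -0.14 for ITGA6 and -0.18 for ITGB4. There the groups did not overlap for ITGB6, ITGB8, ITGB1 and ITGAV (higher, as for 15.2% of all genes) and for ITGB5 and ITGB4 (lower, as for 21.4%). With the GC trend removed and sh-NC 2 left out, also chosen after seeing the data, ITGB6 passed the call rule (log2 fold change 1.04, SE 0.15, adjusted p = 0.0127 by edgeR's quasi-likelihood test), as did 1.39% of all genes in that direction, and 0 of 10 subunits passed it in the other, where 0.860% of all genes did. ITGB5 had a log2 fold change of -0.60 (SE 0.11) there with adjusted p = 0.0231, under the fold limit, and ITGB8 one of 0.71 (SE 0.19) with adjusted p = 0.0575. ITGA6 was lower in shRBM10 in that fit (-0.48, SE 0.17, adjusted p = 0.109).

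**Figure D4:**
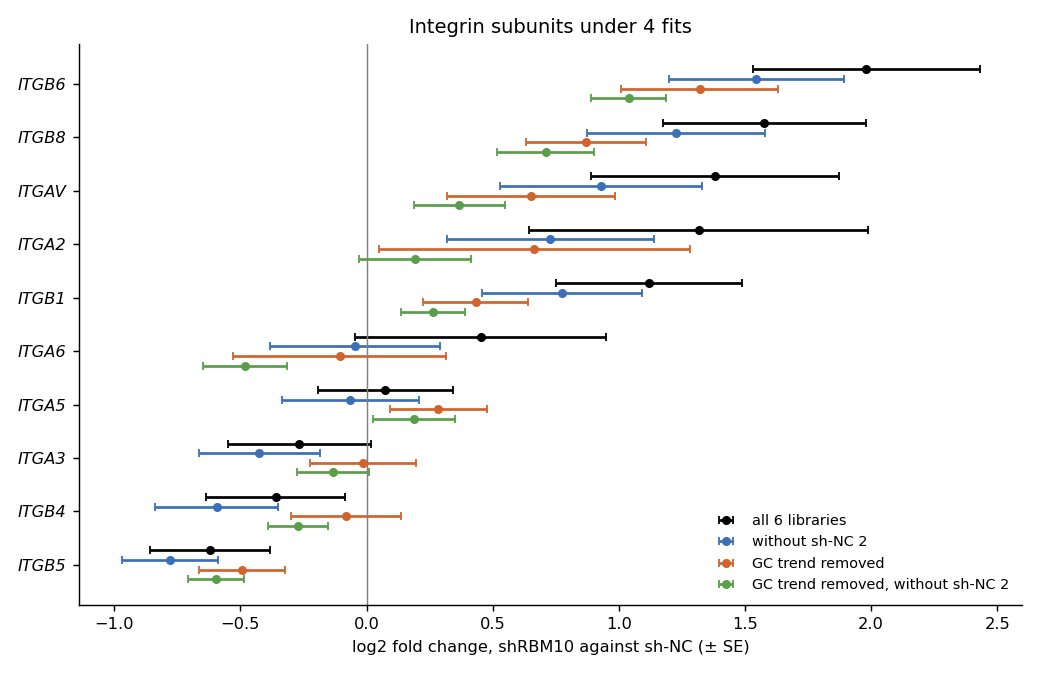
Log2 fold change of each integrin subunit (± SE) with all 6 libraries (black), without sh-NC 2 (blue), with the GC trend removed (orange) and with both changes (green). ITGB6 stays at or above 1.04 and ITGB5 at or below -0.49 in all 4 fits, while ITGA6 runs from 0.45 to -0.48.

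Ratios between partner subunits within a library do not move with its scaling, and 6 pairs were compared by two-sided exact permutation tests, which cannot go below p = 0.1 with 3 libraries against 3. The log2 ratio of ITGB6 to ITGB5, both partners of ITGAV, was -4.12, -5.56 and -4.46 in sh-NC and -1.42, -1.60 and -3.06 in A to C, a difference of 2.69 (exact p = 0.1, adjusted p = 0.2 over the 6 pairs). The log2 ratio of ITGB8 to ITGB5 differed by 2.24 in the same direction (exact p = 0.1, adjusted p = 0.2), again with no overlap. The log2 ratio of ITGB4 to ITGB1, the β partners of ITGA6, was 0.22, 0.66 and 0.20 in sh-NC and -1.89, -1.54 and 0.079 in A to C, a difference of -1.48 with no overlap (exact p = 0.1, adjusted p = 0.2). For ITGA6 to ITGB4 (difference 0.97, exact p = 0.3), ITGA5 to ITGB1 (-1.07, exact p = 0.3) and ITGA2 to ITGB1 (0.60, exact p = 0.7) the groups overlapped. The subunits of the 3 pairs that did not overlap differ in GC content, as do those of ITGA6 to ITGB4 and ITGA5 to ITGB1. The ratios were not corrected for the GC trend, and its part in them was not tested. Without sh-NC 2 the difference for ITGA2 to ITGB1 was -0.11 (exact p = 0.8).

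Integrin genes are spliced, and their tails in the cytoplasm come in alternative forms. The tail exons of ITGA6 are shown because they tell its best known forms apart: each starts at the codons of the motif next to the membrane that α subunits share (capitals), then runs into a different tail. Both are on the plus strand of chromosome 2 (GENCODE 29, GRCh38).
ITGA6 tail A, NM_000210 (chr2:172501772-172501876): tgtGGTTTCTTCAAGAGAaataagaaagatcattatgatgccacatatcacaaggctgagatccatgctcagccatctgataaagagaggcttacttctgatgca
ITGA6 tail B, NM_001079818 (chr2:172504091-172504249): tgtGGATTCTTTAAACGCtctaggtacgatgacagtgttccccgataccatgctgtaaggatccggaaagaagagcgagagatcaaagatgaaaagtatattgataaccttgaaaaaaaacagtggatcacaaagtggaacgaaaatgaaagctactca
NM_000210, with tail A, held 42.0%, 26.4% and 56.5% of the ITGA6 counts in sh-NC 1 to 3 and 48.3%, 56.2% and 48.1% in A to C. NM_001079818, with tail B, held 0.833%, 21.3% and 0.652% in sh-NC and 6.71%, 4.97% and 3.16% in A to C. Of these 2 transcripts the one with tail A had the larger share in all 6 libraries, and they lay closest in sh-NC 2, which had few ITGA6 counts (171). XM_017004007 held 25.1% to 41.3% in the 6 libraries, and XM_017004005 reached 13.5% in sh-NC 2 and at most 4.37% in the other libraries. These transcripts were not assigned to a tail here, so the share of each tail over the whole gene is not established.

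Transcript usage, the share of a gene's counts on each transcript, was tested with edgeR's diffSpliceDGE in 8348 genes with at least 2 transcripts kept. It did not pass an adjusted p of 0.05 for any of the 8 subunits tested, beside 0.0958% of all genes, and 0 of 8 had an unadjusted Simes p under 0.05, as 232 of all genes did. The smallest Simes p-values were 0.819 for ITGB4, 0.857 for ITGA6, 0.864 for ITGB8 and 0.968 for ITGA5, and ITGA2 and ITGAV had fewer than 2 transcripts kept. With a library left out, the unadjusted Simes p was 0.0348 (without A) and 0.0305 (without B) for ITGB4 and 0.0232 (without B) for ITGB6, and 0 subunits passed after adjustment. NM_001321123 and NM_001005731 of ITGB4 held 66.6% ± 3.38 and 29.3% ± 2.87 of its counts in sh-NC (SD, n = 3) and 66.8% ± 2.76 and 26.7% ± 3.47 in shRBM10. Of ITGB5, XM_017006353 held 68.5% ± 4.27 in sh-NC and 69.5% ± 1.33 in shRBM10, NM_002213 held 18.4% ± 1.62 and 17.7% ± 0.758, and XM_006713630 held 5.66% to 11.1% in the 6 libraries. NM_000888 of ITGB6 held 84.7% ± 8.36 in sh-NC and 81.4% ± 5.25 in shRBM10. Its NM_001282388 held 3.51% to 13.9% in the 6 libraries. NM_002203 held 100% of the ITGA2 counts in every library, and NM_002210 held 96.2% to 100% of those of ITGAV in all libraries but sh-NC 2, where it held 33.1% and NM_001144999 held 66.9% of 70 counts. NM_002204 of ITGA3, NM_002205 of ITGA5 and NM_002211 of ITGB1 held 94.9% ± 1.57, 92.4% ± 7.34 and 97.5% ± 1.46 of their gene's counts in sh-NC, and XM_024448970 held 0.222% to 14.9% of those of ITGA5 in the 6 libraries. For ITGB8 the shares ranged widely, as NM_002214 held 0% to 83.9% in sh-NC and 29.7% to 92.7% in shRBM10, and they are not read here. The other ITGB8 transcripts that held at least 10% in a library were XM_011515396, XM_017012178, XM_017012179, XM_017012180, XM_017012182 and XM_017012183. Reads shared by transcripts of a gene were divided between them by estimation, so these shares are estimates.

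Of 14 further integrin subunits in the table, 6 were kept by the filter, and 0 of 6 passed the call rule. At the unadjusted rule 1 was higher (16.7%, beside 10.1% of all genes) and 1 lower (16.7%, beside 1.53%). The groups did not overlap for 2 that were higher (13.8% of all genes) and 2 that were lower (16.2% of all genes). ITGA11, a collagen receptor subunit, had 4.49, 5.43 and 4.47 normalized counts in sh-NC and 15.3, 16.1 and 22.8 in A to C, and C was here the highest (log2 fold change 1.91, SE 0.40, unadjusted p = 0.000867, adjusted p = 0.127 by edgeR's quasi-likelihood test). ITGA11 is a gene of few counts, and its TPM in sh-NC 1 to 3 was 0.04, 0.02 and 0.03. ITGA1, the other collagen receptor subunit here, was higher without overlap (log2 fold change 0.98, SE 0.34), and ITGA2B, the platelet subunit, and ITGAE, the E-cadherin-binding subunit, were lower without overlap (-1.11, SE 0.32, and -0.73, SE 0.32). ITGA7 and the leukocyte subunit ITGB2 had log2 fold changes of -0.49 (SE 0.38) and -0.27 (SE 0.26) and overlapped.

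Ligands, regulators and partners of integrins were taken as 6 lists, in which 0 genes passed the call rule. Among 26 ligands tested the median log2 fold change was 0.21, with 3 higher (11.5%, beside 10.1% of all genes) and 0 lower at the unadjusted rule. They were SPP1 (osteopontin, a ligand of αv integrins), NPNT (nephronectin) and EDIL3. SPP1 had 1226, 1670 and 1282 normalized counts in sh-NC and 3927, 3915 and 3113 in A to C, with no overlap, a log2 fold change of 1.39 (SE 0.23) and adjusted p = 0.0894 by edgeR's quasi-likelihood test. NPNT and EDIL3 had log2 fold changes of 1.28 (SE 0.38) and 1.63 (SE 0.70) with at most 50.8 normalized counts in any library. The laminin chain LAMA4 stood at 0.91 (SE 0.37) and CCN1, a matricellular ligand, at -0.87 (SE 0.28).

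Of 14 activators and tail-binding inhibitors, 2 were higher at the unadjusted rule (14.3%, beside 10.1% of all genes) and 0 lower, with a median of -0.17. FERMT2 (kindlin-2), which binds β tails and activates them, had 563, 214 and 515 normalized counts in sh-NC and 1747, 1504 and 618 in A to C (log2 fold change 1.58, SE 0.45, adjusted p = 0.153 by edgeR's quasi-likelihood test). DAB2, a clathrin adaptor that binds β tails, had a log2 fold change of 1.33 (SE 0.36). RAP1A, RAP1B and KANK1 stood at 0.52 (SE 0.24), 0.60 (SE 0.30) and 0.71 (SE 0.33). Of 31 focal adhesion scaffold proteins and kinases, 1 was higher (3.23%) and 1 lower (3.23%, beside 1.53% of all genes), with a median of -0.17: PTK2, the focal adhesion kinase, at 1.10 (SE 0.34), and TGFB1I1, a paxillin relative with at most 32.3 normalized counts, at a fold change of 0.355. The kinase SRC stood at -0.68 (SE 0.25), GIT1 at -0.54 (SE 0.25) and the adaptor CRK at 0.79 (SE 0.34).

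Of 9 hemidesmosome genes, the structure of ITGA6 with ITGB4, 1 was lower at the unadjusted rule (11.1%, beside 1.53% of all genes), the basal keratin KRT5 (log2 fold change -1.49, SE 0.36, at most 43.4 normalized counts), and the median was -0.23. LAMB3, COL17A1, DST and PLEC had log2 fold changes of -0.46, -0.43, 0.55 and -0.29 with overlapping groups. Of 12 membrane partners 0 passed that rule in either direction (median -0.089). CD47, a partner of αv integrins, stood at 0.93 (SE 0.27), SLC3A2, which binds β1 tails, at -0.91 (SE 0.27), and the tetraspanin CD82 at 0.73 (SE 0.27), each without overlap, with BSG and CD81 at -0.53 (SE 0.28) and -0.26 (SE 0.24). Among the 12, groups did not overlap for 2 that were higher (13.8% of all genes) and 2 that were lower, SLC3A2 and BSG (16.2% of all genes). Of 18 genes of integrin trafficking, 2 were higher (11.1%, beside 10.1% of all genes), VPS35 of the retromer, at 1.68 with SE 0.42, and DAB2, with a list median of -0.077. RAB5A, RAB4A and HAX1 stood at 0.80 (SE 0.30), -0.50 (SE 0.26) and -0.87 (SE 0.37).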

How the data were processed

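RNA of 3 sh-NC and 3 shRBM10 PC9 libraries was sequenced. The authors deposited estimated counts per gene (16306 genes) and per RefSeq transcript (76563), and TPM, scaled by transcript length and by library. The submitters' processing notes name hg38 as the genome build. The aligner, the counting tool and the annotation are not given in the sources used here. The library protocol in the labels speaks of retinas and names 2 kits, and the tables hold PC9 columns. The names of 2 shRBM10 columns match no sample title, so these libraries were used as B and C without a number, and for the estimated counts alone. Unused were 14 and 18 per-sample columns of the gene and transcript tables (6 in each match no sample title) and 7 and 8 of group means.

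Estimated counts, once rounded to whole numbers, were filtered with filterByExpr, scaled by TMM and tested with edgeR 4.0.16 (glmQLFit, glmQLFTest; limma 3.58.1, R 4.3.3) across all genes, with Benjamini-Hochberg adjustment. The standard error is the log2 fold change over the square root of F. Transcript usage was tested with diffSpliceDGE and pair ratios by exact permutation. GC content and length are those of the longest coding transcript in GENCODE 29, found for 99.6% of the genes tested. The GC trend was a loess fit (span 0.5) per library, entered as an offset. Named were RBM10, the 10 subunits, every other subunit kept, the 5 genes of smallest p in each list, the 4 subunits of smallest Simes p and transcripts with at least 10% of a gene's counts. The lists were other integrin subunits, ligands, activators and tail-binding inhibitors, focal adhesion scaffold and kinases, hemidesmosome, membrane partners and trafficking. The members and lists were chosen with earlier results of these data known. Alternatives were DESeq2 1.42.0, limma-voom, other normalizations and filters, an adjusted p alone, removed GC and length trends, a replicate block and leaving out each library.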

Additional observations from a re-analysis of the deposited data

How the results depend on the processing

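Of 170 log2 fold changes of the 10 subunits under 17 alternatives each, 164 kept their direction. ITGA6 reversed to -0.11 with the GC trend removed, -0.14 with GC and length trends removed, -0.48 with the GC trend removed and without sh-NC 2, and ITGA6 and ITGA5 reversed when libraries were left out, with ranges of -0.046 to 0.73 and -0.30 to 0.23. DESeq2 put ITGB6 (1.94), ITGB8 (1.54) and RBM10 (-1.27) past the call rule. The GC trend removed without sh-NC 2 did so for ITGB6 (1.04) and RBM10 (-1.11), and leaving out single libraries gave RBM10 -1.43 to -1.17. RBM10 was at -0.98 with the GC trend removed (adjusted p = 0.103 by edgeR's quasi-likelihood test). It was at -0.999 with GC and length trends removed (adjusted p = 0.0214 by the same test), and both values are under the fold limit. Called subunits, all higher in shRBM10, were 2 with DESeq2 (3.33% of all genes with an adjusted p) and 1 with the GC trend removed without sh-NC 2 (1.39% of all genes). At the unadjusted rule 1 subunit was left with the GC trend, with GC and length trends, and with the GC trend and sh-NC 2 removed, and 2 to 5 when a library was left out. It was 2 without sh-NC 2 and without A, where 4.81% and 3.33% of all genes were higher by that rule. Groups did not overlap for 2 subunits by library size only, for 6 with GC and length trends removed and for 4 to 9 with a library left out, both directions together. With GC and length trends removed, 15.2% of all genes were higher and 21.4% lower without overlap. The 9 were without library C, where 33.0% of all genes were higher and 30.5% lower without overlap. For the other counts by the unadjusted rule or without overlap, the share of all genes is not given here. Those counts are therefore not read as results about the subunits. The genes called in all, 2 with all libraries, were 544 by DESeq2, 0 by library size only, 31 with no filter, 4 with the GC trend removed, 169 with GC and length trends removed, 288 with the GC trend removed without sh-NC 2, and 0 to 23 with a library left out. In the lists, DESeq2 called 1 ligand (SPP1), 2 activators and inhibitors (FERMT2, DAB2) and 2 trafficking genes (VPS35, DAB2), and no filter called 1 ligand. With GC and length trends removed, 1 ligand (SPP1), 1 hemidesmosome gene (KRT5) and 1 membrane partner (CD82) were called. The GC trend removed without sh-NC 2 called 1 further subunit (ITGA11), 3 ligands (SPP1, THBS1, CCN1), 1 hemidesmosome gene (KRT5), 1 membrane partner (CD82) and 1 trafficking gene (RAB21). Leaving out 1 library called 0 to 2 ligands (SPP1 and THBS1 without sh-NC 2). Genes of changed usage, 8 with all libraries, were 43 by the gene-level F test, 0 with at least 10 counts in every library and 5 to 14 with a library left out. The difference of ITGA2 to ITGB1 ranged from -0.11 to 1.02 with a library left out. The cause of these changes was not tested. Scaling by library size only moved the median of all genes to 0.16. The column names end in A, B or C in both groups (sh-NC 1 to 3 are A to C). The correlation of the deviations from the group means across genes was 0.38, -0.047 and -0.32 for libraries of the same letter. For libraries of different letters it ran from -0.42 to 0.40. The control mean includes sh-NC 2, which stood apart, so these values cannot show whether the letters pair the samples. With the letter as a replicate block, 861 of the 12620 genes tested were called, both directions together, RBM10 (-1.25) among them. So were 5 subunits, all higher in shRBM10 (ITGB6 2.03, ITGB8 1.57, ITGA2 1.57, ITGAV 1.41 and ITGB1 1.10). All 5 are of low GC content, and the share of all genes called higher in that fit is not given here. In the lists it called 1 further subunit (ITGA11), 2 ligands (SPP1, EDIL3), 2 activators and inhibitors (FERMT2, DAB2), 1 focal adhesion gene (PTK2), 1 hemidesmosome gene (KRT5) and 2 trafficking genes (VPS35, DAB2). With 3 libraries a group, small differences were not detectable, and the block by letter and the fits with GC and length trends and with the GC trend removed without sh-NC 2 were chosen after seeing the data.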
